A study of Citrullus lanatus with 6 samples.

Results

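A group of 20 watermelon genes was at or near 0 in leaves of seedlings kept in water and was expressed in every leaf sample of seedlings kept in salt. The 20 genes were chosen among the 22545 gene models that carry an annotation number of Charleston Gray, the cultivar whose genome served as reference, as those with less than 0.5 FPKM in each control library and at least 5 FPKM in each salt library. FPKM is the number of sequenced fragments of a gene per kilobase of its length, scaled to the depth of the library. Since the salt and control values chose the genes, the difference between the treatments is described below and was not tested. Of the 5991 models below 0.5 FPKM in every control library, 3935 were at 0 in all 6 libraries, 99 reached 1 FPKM in every salt library and the 20 genes, or 0.334%, reached 5 FPKM in every salt library. With the limits turned the other way round, 11 models were switched off by salt, and 6 after the scaling described below, which gave 28 switched-on genes.

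The data are leaf RNA-seq libraries of the watermelon (Citrullus lanatus) cultivar Crimson Sweet, 3 from salt-treated and 3 from control seedlings, each from a separate plant according to the labels. Both groups were uprooted at an age of 6 weeks and had only a liquid around the roots for the following 7 h, which was 300 mM NaCl for the salt plants and purified water for the controls. Part of the labels calls the treated plants drought-stressed, while the title and the other labels say salt, and they are called salt-treated here. Whole leaves were used, so that more cells of a type and more RNA per cell cannot be told apart in any of the values.

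High salt first makes water harder to take up and then loads the leaf with sodium and chloride. Plant cells answer within hours by turning on transcription factors such as the ethylene-responsive factors (ERFs), protective proteins such as the late embryogenesis abundant (LEA) proteins of drying seeds, and enzymes that adjust hormones and respiration. Genes that are silent in unstressed leaves and start up under stress are of use as markers of the response, because their signal does not stand on a basal level.

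The libraries held 18979423 to 20118169 fragments in salt and 18838185 to 21258223 in control, as recovered from the steps of the FPKM values. A single fragment on 1 kb of sequence thus stood for 0.0470 to 0.0531 FPKM. The intervals and floors given below cover counting error only. They pool the fragments of the 3 libraries of a treatment and leave out the spread among plants. They also take no account of the choice of the genes by the same values, so they are no test of the difference. The leaf label was checked with 15 nuclear photosynthesis genes. The study names them as lowered by salt, so that choice set the direction of their sums and only their presence is a check. None was at 0 in any library, and their summed level was 2000, 476 and 1561 FPKM in salt replicates 1 to 3, against 5758, 5983 and 10341 FPKM in control replicates 1 to 3. A typical gene had a lower FPKM in salt, with a library's median ratio to a common reference of 0.693 to 0.955 in salt and 1.21 to 1.29 in control. After scaling by these ratios 28 genes met the limits, all 20 among them.

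The 20 genes lay between 5.5 and 396 FPKM in the salt libraries and between 0 and 0.488 FPKM in the control libraries. Their mean level in salt had a median of 21.9 FPKM, beside 24.5 FPKM over all 8587 models with at least 5 FPKM in every salt library, so that most were of ordinary strength once on. Summed over the 20 genes, the level was 651, 1176 and 512 FPKM in salt replicates 1 to 3, against 1.10, 2.01 and 3.16 FPKM in control replicates 1 to 3. Salt replicate 2 had the highest sum, and control replicate 3 had both the highest sum of the controls and the most genes above 0, namely 11, beside 7 in control replicate 2 and 5 in control replicate 1. Across all genes tested, every salt library was above every control library in 17.7%, and for the 20 genes the rule itself fixed this order.

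**Figure D1:**
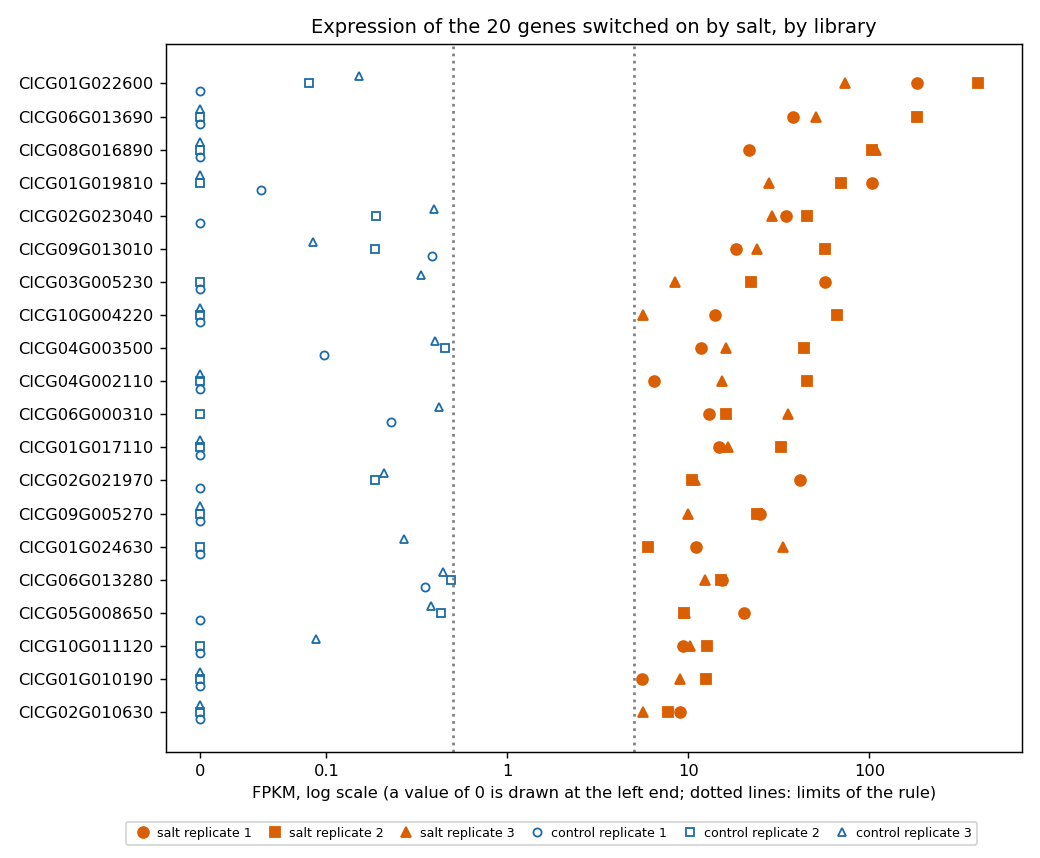
FPKM of the 20 genes in each library on a log scale, filled symbols for the 3 salt libraries and open symbols for the 3 control libraries, with values of 0 drawn at the left end and the limits of 0.5 and 5 FPKM as dotted lines. The genes run from ClCG01G022600, with a mean of 217 FPKM in salt, down to ClCG02G010630 with 7.46 FPKM, and 8 of them have 0 in all 3 control libraries.

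Regulators of transcription and of protein breakdown made up 4 of the 20 genes. ClCG06G013690 on chromosome 6 is described as Protein rough sheath 2, the name of a MYB-type repressor of KNOX genes in maize leaves. It had 37.7, 183 and 50.7 FPKM in salt replicates 1 to 3, from 148, 725 and 211 fragments, against 0 fragments in all 3 control libraries. Set against a floor of 3 fragments over the 3 control libraries together, the salt level was at least 377-fold higher, and at least 186-fold without salt replicate 2. Its model of 207 bases is the shortest of the 20.

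Both ERF genes stayed below the median level of the 20. ERFs bind the promoters of stress and defense genes, and some of them act at the end of ethylene signaling. ClCG05G008650, described as ethylene responsive transcription factor 1a, had 20.1, 9.41 and 9.53 FPKM in salt replicates 1 to 3, against 0, 0.432 and 0.379 FPKM in control replicates 1 to 3. ClCG10G011120, described as ethylene responsive transcription factor 2b, had 9.38, 12.7 and 10.2 FPKM in the salt libraries, against 0, 0 and 0.0871 FPKM in the control libraries. In the second gene the 3 salt values were within 1.35-fold of each other, and the control value rests on 2 fragments in control replicate 3.

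The remaining regulator, ClCG09G005270, is described as a protein with F-box, RNI-like and FBD-like domains. F-box proteins pick the targets that ubiquitin ligases mark for breakdown. The gene had 24.7, 23.8 and 9.92 FPKM in salt replicates 1 to 3, against 0 fragments in every control library, and was at least 202-fold higher in salt.

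Most other described genes of these families had 0.5 FPKM or more in at least 1 control library. So did most models, with 5991 of all 22545 below 0.5 FPKM in every control library. Descriptions were taken from the study's lists of changed genes, whose part used here holds up-regulated genes almost only, so the direction of these families was set by that choice and is no independent evidence. Over all 16638 genes tested with limma at an adjusted p below 0.05, 13.6% rose and 34.2% fell in salt. After median-ratio scaling 22.6% rose and 20.9% fell, so this balance depends on the scaling. The study's own comparison, which also set a fold change limit, reported more genes up than down. Of 27 other described ERF and DREB genes, 25 rose and 0 fell, and 7 of the 27 were below 0.5 FPKM in every control library. ClCG01G003120, described as dehydration responsive element binding transcription factor 1B, came near the limits. It had 8.71, 11.3 and 3.60 FPKM in salt replicates 1 to 3 and 0 in every control library. Of 19 other genes described as MYB, 17 rose and 4 of the 19 were below 0.5 FPKM in every control library, while none of 17 other F-box genes was, of which 11 rose and 3 fell.

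Genes for the making, removal or sensing of signal molecules were another 3. ClCG01G019810 belongs by description to the S-adenosyl-L-methionine:carboxyl methyltransferase family, whose enzymes turn acids such as salicylic and jasmonic acid into methyl esters. It had 103, 69.8 and 28.0 FPKM in salt replicates 1 to 3, against 0.0435, 0 and 0 FPKM in control replicates 1 to 3. A single fragment in control replicate 1 stood against 4264 in the 3 salt libraries, a ratio per depth of 4452 with a 95% counting interval from 799 to 175874.

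Growth hormone breakdown was represented by ClCG01G024630, a gibberellin 2-oxidase, the type of enzyme that inactivates gibberellins. Its level was 11.1, 5.95 and 33.2 FPKM in salt replicates 1 to 3, against 0, 0 and 0.268 FPKM in control replicates 1 to 3, with salt replicate 3 far above the other salt libraries. The other gene with this description, ClCG03G006860, was on in water and rose too, to 104, 188 and 154 FPKM in salt replicates 1 to 3, against 14, 9.50 and 14 FPKM in control replicates 1 to 3 (log2 fold change 3.50, standard error 0.29, adjusted p = 0.000229 from limma).

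A hexokinase gene showed the same contrast. Hexokinases phosphorylate glucose and, in Arabidopsis, also serve as a glucose sensor. ClCG02G023040 had 34.8, 45.0 and 29.0 FPKM in salt replicates 1 to 3, against 0, 0.188 and 0.395 FPKM in control replicates 1 to 3, which rest on 0, 7 and 13 fragments. The other described hexokinase, ClCG03G013050, had 30.1, 26.5 and 45.7 FPKM in the salt libraries, against 11.4, 12.1 and 10.4 FPKM in the control libraries (log2 fold change 1.51, standard error 0.27, adjusted p = 0.00392 from limma). In salt the pair had similar means, 36.3 ± 8.09 FPKM for ClCG02G023040 and 34.1 ± 10.2 FPKM for ClCG03G013050 (SD, n = 3), so that the gene silent in water reached the level of the one that was not.

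Respiration gave the strongest gene and a pair of a different kind. ClCG01G022600 on chromosome 1 is described as mitochondrial alternative NADH dehydrogenase 2, an enzyme type of plant mitochondria that passes electrons from NADH to ubiquinone without pumping protons. It had 182, 396 and 73.1 FPKM in salt replicates 1 to 3, against 0, 0.0800 and 0.150 FPKM in control replicates 1 to 3. In fragments these were 6109, 13419 and 2596 in salt and 0, 3 and 5 in control, a ratio per depth of 2887 (95% counting interval 1465 to 6688), or 1693 without salt replicate 2. Salt replicate 2 was 5.42-fold above salt replicate 3, yet the lowest salt value was far above the highest control value.

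Cytochrome b, a core protein of respiratory complex III, and subunit 1 of cytochrome c oxidase, the catalytic subunit of complex IV, are proteins that plants encode in the mitochondrial genome. The models with these descriptions carry identifiers of chromosomes 9 and 4. ClCG09G013010 (cytochrome b) had 18.4, 56.5 and 23.9 FPKM in salt replicates 1 to 3, against 0.381, 0.186 and 0.0839 FPKM in control replicates 1 to 3. ClCG04G003500 (cytochrome c oxidase subunit 1) had 11.7, 43.2 and 16.1 FPKM in the salt libraries, against 0.0969, 0.449 and 0.400 FPKM in the control libraries. Both had the salt order replicate 2, 3, 1. Whether the fragments came from nuclear copies or from the organelle was not tested.

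Other models described as mitochondrial or plastid genes were also higher in salt. Of 34 others, 31 were tested. Of these 28 rose (30 with the replicate number as a block) and 0 fell, beside 13.6% and 34.2% of all genes tested. The summed level of the 34 was 832, 2180 and 1108 FPKM in salt replicates 1 to 3, against 62.7, 69.8 and 194 FPKM in control replicates 1 to 3. Like the pair, 23 of the 34 were highest in salt replicate 2, the library with the lowest photosynthesis gene sum, and 25 of the 34 after median-ratio scaling. Over all models at or above 5 FPKM in salt these shares were 21.4% and 48.0%. The second model described as cytochrome b, ClCG07G004380, had 3.62, 9.45 and 4.14 FPKM in the salt libraries and 0 in every control library. All 36 together took 0.124% to 0.308% of the summed FPKM of a salt library and 0.00827% to 0.0260% of that of a control library. The list was again one of genes the study found changed. Models at or near 0 in control, ClCG07G004380 among them, entered the test through their salt values alone. The filter thus set their direction, and their place among the 28 adds nothing to these values.

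**Figure D2:**
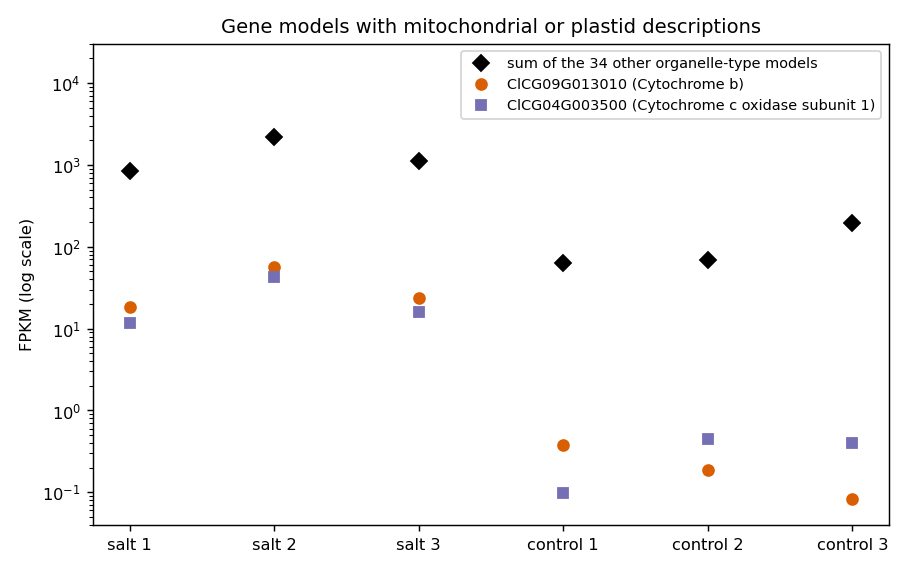
FPKM on a log scale by library, salt replicates 1 to 3 left of control replicates 1 to 3, for the 2 switched-on models described as mitochondrial genes and for the sum of the 34 other organelle-type models. All 3 are highest in salt replicate 2, and the sum of the others reaches 194 FPKM in control replicate 3, where the 2 genes have 0.0839 and 0.400 FPKM.

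Other members act in specialized metabolism, transport, the cell wall and protection from drying. ClCG03G005230 is described as a member of the terpenoid cyclase and protein prenyltransferase superfamily, which holds enzymes that close the rings of terpenes. It had 56.7, 22.1 and 8.44 FPKM in salt replicates 1 to 3, against 0, 0 and 0.334 FPKM in control replicates 1 to 3, an order of 1, 2, 3 with a 6.72-fold range. Close by in number, ClCG03G005210 (terpene synthase 3) rose as well, with 5.78, 3.43 and 2.66 FPKM in the salt libraries, against 0.497, 0 and 1.03 FPKM in the control libraries (log2 fold change 2.23, standard error 0.52, adjusted p = 0.0108 from limma).

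The transporter among the 20 was ClCG02G021970, a pleiotropic drug resistance ABC transporter, of the family that pumps hormones and defense compounds out of plant cells. Its level was 41.5, 10.4 and 10.9 FPKM in salt replicates 1 to 3, against 0, 0.184 and 0.208 FPKM in control replicates 1 to 3. Its model of 4338 bases is the longest of the 20, so its low control values still rest on 17 fragments each in control replicates 2 and 3. The other described gene of the family, ClCG02G019560, had 3.99, 1.87 and 1.30 FPKM in the salt libraries, against 0.723, 0.598 and 0.866 FPKM in the control libraries, and did not pass (log2 fold change 1.13, standard error 0.45, adjusted p = 0.0706 from limma). It passed after either other scaling, without the variance trend or without salt replicate 3 (0.0140 to 0.187 over all alternatives).

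Cell wall and sugar transfer genes were ClCG06G000310 and ClCG06G013280. The first is described as fasciclin-like arabinogalactan protein 13, one of the glycoproteins of the cell surface and wall, and had 12.9, 16.1 and 35.4 FPKM in salt replicates 1 to 3, against 0.227, 0 and 0.417 FPKM in control replicates 1 to 3. Of 9 other fasciclin-like genes described, 5 rose, 3 did not pass and 1 was too low to test. Over all genes tested 13.6% rose, and the study's lists of changed genes, which gave the descriptions, set the direction of the 9. The second, a transferase of glycosyl groups, was the steadiest of the 20, with 15.4, 15.2 and 12.3 FPKM in the salt libraries, a range of 1.25-fold, against 0.350, 0.488 and 0.441 FPKM in the control libraries. It was also the closest to the control limit.

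The LEA gene ClCG04G002110 is described as seed maturation protein LEA 4, of the group that accumulates in ripening seeds. It had 6.42, 45.3 and 15.3 FPKM in salt replicates 1 to 3, from 66, 471 and 167 fragments, against 0 fragments in the control libraries, and was at least 245-fold higher in salt, or at least 121-fold without salt replicate 2. Of 14 other LEA and seed protein genes described, 10 rose, 3 did not pass and 1 was too low to test. Below 0.5 FPKM in every control library were 2 of the 14, beside 5991 of all 22545 models. Over all genes tested 13.6% rose, and the study's lists of changed genes, which gave the descriptions, set the direction of the 14.

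No function is given for 5 of the 20 genes. The strongest was ClCG08G016890, with 21.7, 103 and 109 FPKM in salt replicates 1 to 3. ClCG10G004220 had 14, 65.9 and 5.62 FPKM, the widest range of the 20 at 11.7-fold. ClCG01G017110 had 14.7, 32.3 and 16.6 FPKM in the salt libraries.

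The weakest members were also unknown proteins. ClCG01G010190 had 5.5, 12.5 and 9.03 FPKM in salt replicates 1 to 3, and ClCG02G010630 had 9.02, 7.75 and 5.60 FPKM, from 38, 33 and 25 fragments. All 5 unknown genes had 0 fragments in the 3 control libraries. Against the floor of 3 fragments, ClCG08G016890 was at least 367-fold, ClCG10G004220 at least 187-fold, ClCG01G017110 at least 125-fold, ClCG01G010190 at least 73.4-fold and ClCG02G010630 at least 33.4-fold higher in salt. Without salt replicate 2 the limit for ClCG10G004220 was 64.3-fold.

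A control value of 0 went with a short gene model. The 8 genes with 0 fragments in every control library had models of 207 to 542 bases, and the other 12 had models of 636 bases or more. Among the models at or above 5 FPKM in every salt library, 8.66% were shorter than 600 bases, as were 16.1% of the 18610 models with any fragment. In a short model a fragment is worth more: in the 207 bases of ClCG06G013690, 3 fragments in a library would give up to 0.769 FPKM. For 4 of the 8 genes this floor lay above the limit of 0.5 FPKM, so that a single control library at 0 could not show that the gene was below the limit. Over the 3 control libraries combined the floor was below it for all 8. The limit of 0.5 FPKM allowed a short model fewer control fragments than a long one, so the rule itself set part of the link with length. A recovered length may also be a divisor of the true one.

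**Figure D3:**
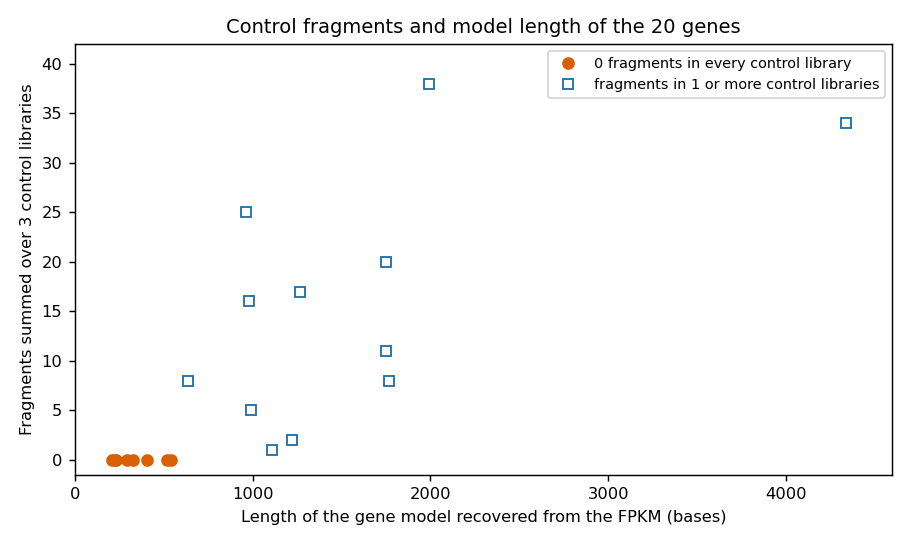
Length of the gene model in bases against the fragments summed over the 3 control libraries for each of the 20 genes, filled circles for genes with 0 fragments in every control library and open squares for the others. The circles all lie at 542 bases or less, and the highest square, ClCG04G003500, has 38 fragments in 1989 bases.

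The salt libraries differed in which genes they expressed most. Of the 20 genes, 7 were highest in salt replicate 1, 10 in replicate 2 and 3 in replicate 3, where the shares over all models at or above 5 FPKM in salt were 43.1%, 21.4% and 35.5%. After median-ratio scaling 4, 14 and 2 of the 20 were highest in these libraries, beside 22.2%, 48.0% and 29.8% of all such models. The ratio of the highest to the lowest salt library had a median of 3.37 over the 20 genes and of 1.62 over all such models, and was above 3 in 11 of the 20 and in 9.55% of all such models. The rule set a minimum for each salt library and did not use their order. The models at or above 5 FPKM take in genes that did not rise in salt, and other strongly risen genes were not compared as a set. The summed level of 61 described heat shock and chaperone genes was also highest in salt replicate 2, at 100367 FPKM.

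The members fell into different salt orders. The order 2, 3, 1 was shared by 7 genes, among them both mitochondrial models, ClCG06G013690 and the LEA gene ClCG04G002110. The order 1, 2, 3 was that of 5 genes, among them the methyltransferase ClCG01G019810 and the terpenoid cyclase ClCG03G005230. Salt replicate 3 led in the gibberellin 2-oxidase ClCG01G024630, the fasciclin-like gene ClCG06G000310 and the unknown ClCG08G016890. With 3 plants such groups have no test.

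**Figure D4:**
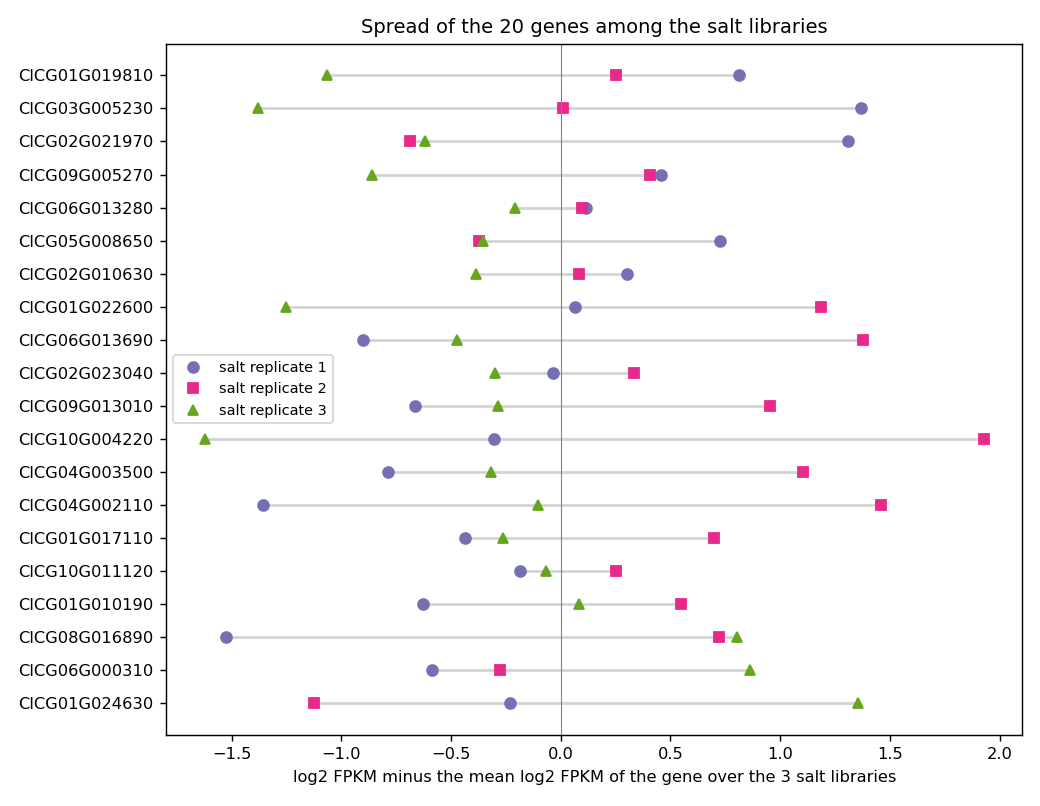
Log2 FPKM of each gene in the 3 salt libraries, as the difference from the gene's own mean over these libraries, with genes grouped by the library in which they are highest. Salt replicate 2 is the highest in 10 genes, and the spread is widest in ClCG10G004220 and narrowest in ClCG06G013280.

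Where the limits fall decided how many genes were counted. Just inside the salt limit were ClCG01G010190, ClCG02G010630 and ClCG10G004220, whose lowest salt libraries had 5.5, 5.60 and 5.62 FPKM. Just outside it were ClCG01G017500 (BTB/POZ and TAZ domain protein) with 4.96, ClCG04G005140 (U-box protein) with 4.87 and ClCG05G022040 (steroid dehydrogenase) with 4.69 FPKM. BTB/POZ and U-box proteins take part, like F-box proteins, in marking proteins for breakdown. On the control side ClCG06G013280, ClCG04G003500 and ClCG05G008650 were just inside, with highest control values of 0.488, 0.449 and 0.432 FPKM. ClCG09G004450 (BPS1), ClCG10G007750 (KIP1-like) and ClCG01G012400 (cytochrome P450) were just outside, with 0.509, 0.571 and 0.642 FPKM.

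Single libraries kept out more genes than the whole set holds. Control replicate 3 alone kept out 28, so that 48 genes would qualify without it, against 31 without control replicate 1, 31 without salt replicate 3 and 21 to 23 without any other. The 28, which were sought after their values were seen, include ClCG03G006770, a 9-cis-epoxycarotenoid dioxygenase, the enzyme type that starts abscisic acid synthesis. It had 19, 39.8 and 23.7 FPKM in salt replicates 1 to 3, against 0.25, 0.407 and 1.26 FPKM in control replicates 1 to 3. The jasmonate ZIM domain gene ClCG03G006750, for a repressor type of jasmonate signaling, had 80.1, 109 and 51.9 FPKM in the salt libraries, against 0.332, 0 and 1.95 FPKM in the control libraries. The 61 described heat shock and chaperone genes, none of which met the rule, also had their highest control sum in control replicate 3. Their summed level was 61419, 100367 and 76758 FPKM in salt replicates 1 to 3, against 3282, 3542 and 7260 FPKM in control replicates 1 to 3. The lists that gave their descriptions set the direction of this difference. The 15 photosynthesis genes, which the study names as lowered by salt, had their highest control sum in control replicate 3 as well, at 10341 FPKM. Why control replicate 3 kept out the most genes was not tested.

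Neighbouring genes did not follow the 20 as a rule. The genes lie on 9 chromosomes, and the closest pair by identifier, ClCG06G013280 and ClCG06G013690, is 41 gene numbers apart. Of the 40 identifiers directly before and after the 20 genes, 38 are in the table, none of them a member, and 9 were at 0 in all 6 libraries. Of the 25 that could be tested, 5 rose and 5 fell, or 20% each, beside the 13.6% and 34.2% of all genes tested. Neighbours with a control mean below 0.5 FPKM entered the test through their salt values alone, which set their direction. Distances and strands were not analysed, and fragments of overlapping neighbours could not be told apart.

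The neighbour that rose most was ClCG06G013270, an unknown protein directly before the glycosyl transferase ClCG06G013280. It had 19.6, 38.2 and 14.5 FPKM in salt replicates 1 to 3, against 0.784, 0 and 0.432 FPKM in control replicates 1 to 3 (log2 fold change 4.75, standard error 0.51, adjusted p = 0.000604 from limma), and was kept out of the 20 by control replicate 1 alone. Its control mean lay below the 0.5 FPKM of the test filter, so ClCG06G013270 entered the test through its salt values alone. After cytochrome b, ClCG09G013020 had 7.10, 21.3 and 10.05 FPKM in the salt libraries, against 0.513, 0 and 2.82 FPKM in the control libraries (log2 fold change 3.34, standard error 0.72, adjusted p = 0.00777 from limma). The next identifier, ClCG09G013030, is described as a hypothetical mitochondrial protein and had 8.06, 13.2 and 7.61 FPKM in the salt libraries, against 0.659, 0.45 and 0 FPKM in the control libraries (log2 fold change 3.58, adjusted p = 0.00109 from limma), so that 3 consecutive identifiers were low in water and raised in salt. The control mean of ClCG09G013030 was below 0.5 FPKM too, so its test adds nothing to these values.

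Next to the ABC transporter, ClCG02G021960 had 2.98, 3.34 and 2.81 FPKM in salt replicates 1 to 3 and 0 in every control library, so that it entered the test through its salt values alone and its place among the 5 that rose adds nothing to these values. The other neighbours that rose were ClCG01G022590, beside the alternative NADH dehydrogenase, with a log2 fold change of 2.21, and ClCG06G013680, beside the rough sheath 2 gene, with 1.35 (adjusted p = 0.0043 and 0.0352 from limma). That of ClCG06G013680 was above 0.05 without control replicate 1 or 2 or without any single salt replicate (0.00488 to 0.124 over all alternatives).

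Among the 5 neighbours that fell, ClCG08G016900, after the unknown gene ClCG08G016890, went furthest. It had 27.0, 13.8 and 28.4 FPKM in salt replicates 1 to 3, against 103, 123 and 84.4 FPKM in control replicates 1 to 3 (log2 fold change -2.19, standard error 0.32, adjusted p = 0.0018 from limma). Both ERF genes have a strongly expressed neighbour that fell. ClCG05G008640 had 340, 403 and 375 FPKM in the salt libraries, against 812, 804 and 679 FPKM in the control libraries, and ClCG10G011130 had 282, 170 and 243 FPKM, against 497, 524 and 455 FPKM (log2 fold changes -1.04 and -1.11, adjusted p = 0.0144 and 0.0133 from limma). After median-ratio scaling 2 neighbours fell, ClCG08G016900 and ClCG01G017100, and without control replicate 1 or 2 it was 3 or 1. With the replicate block 7 fell, with ClCG01G017120 and ClCG02G023050 added (adjusted p = 0.0475 and 0.0288, over all alternatives 0.00547 to 0.41 and 0.0288 to 0.248).

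**Figure D5:**
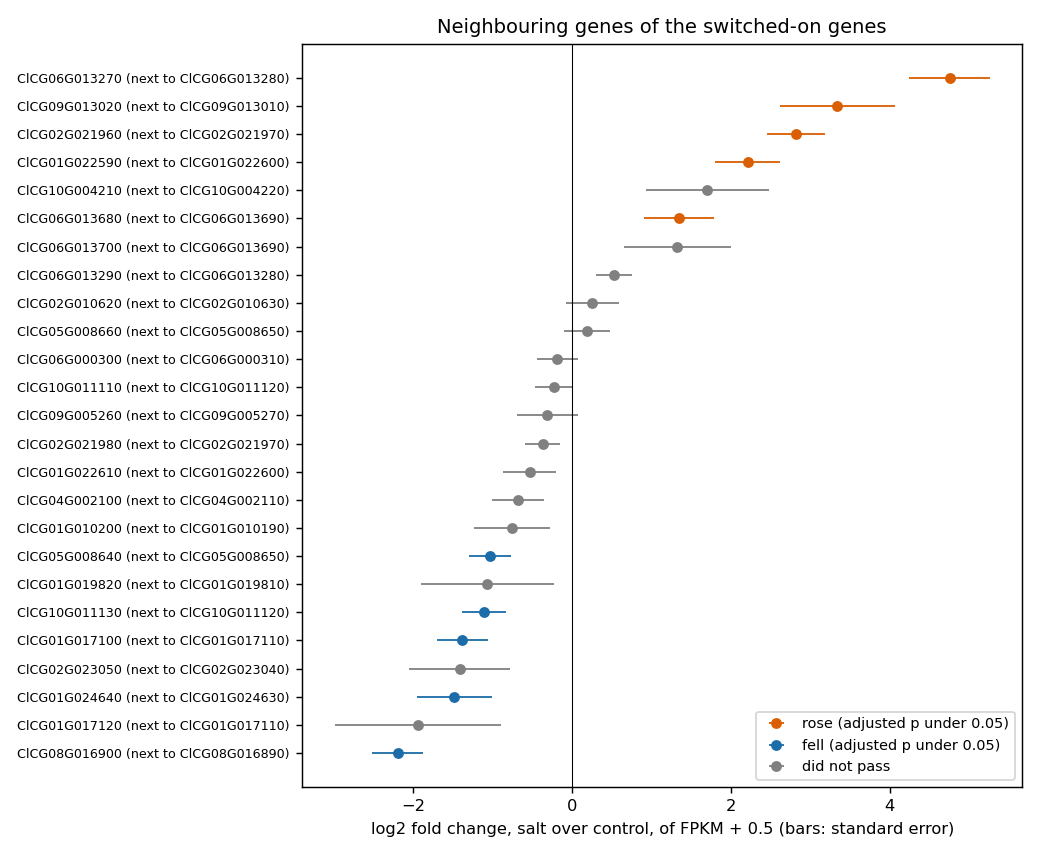
Log2 fold change of salt over control with its standard error from limma for the 25 tested genes directly before or after a switched-on gene, coloured by whether they rose, fell or did not pass at an adjusted p below 0.05. Values run from -2.19 in ClCG08G016900 to 4.75 in ClCG06G013270, with 5 genes past the test in each direction.

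Among the other described genes of the same functional classes most rose. Of 1353 such genes 1278 were tested, of which 1039 rose, 76 fell and 163 did not pass. Over all genes tested 13.6% rose and 34.2% fell. The 1278 genes had a median log2 fold change of 1.92, beside -0.57 over all genes tested. Their descriptions come from the study's own lists of changed genes, which set this direction. The largest changes were those of ClCG11G002510 (multiprotein bridging factor 1C, a stress coactivator), ClCG11G008880 (unknown) and the ERF gene ClCG01G015830, with log2 fold changes of 8.83, 8.70 and 8.57. ClCG11G008880 had 272, 565 and 228 FPKM in salt replicates 1 to 3, against 0.153, 0 and 1.01 FPKM in control replicates 1 to 3, and missed the rule through control replicate 3 alone. Heat shock proteins and chaperones, which refold damaged proteins, were 61 of 61 risen, beside 13.6% of all genes tested. Their descriptions come from the same lists, which set this direction too. Below 0.5 FPKM in every control library were 0 of the 61, beside 5991 of all 22545 models, and their median control level was 25.2 FPKM.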

How the data were processed

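Leaf RNA of 3 salt-treated and 3 control seedlings was sequenced as paired-end reads of 150 bases. The authors trimmed the reads, aligned them to the Charleston Gray genome and deposited 1 table of FPKM values, each library on its own. The study's methods name Bowtie, TopHat and HTSeq, and the submitters' processing notes name fastp, HISAT2 2.1.0, featureCounts and DESeq2; which of them made the FPKM values is not given in the sources used here. Identifiers and FPKM were used as deposited, and 1023 models added by the authors were left out of the rule, of which 16 meet its limits.

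Genes with a mean of 0.5 FPKM or more over the libraries (16638) entered a limma 3.58.1 fit (R 4.3.3) on log2(FPKM + 0.5) with a variance trend and Benjamini-Hochberg adjustment, two-sided, called at an adjusted p below 0.05. All printed adjusted p and log2 fold changes, salt over control, come from this fit, and the pseudocount lowers the change of weak genes. A gene with a control mean below 0.5 FPKM entered the fit through its salt values alone. The filter thus set the direction of such genes, also in the counts of families and neighbours. Fragments and model lengths were recovered as the smallest whole numbers that give all FPKM values of a gene, for 19557 of 19557 genes with a value within 0.002 fragments, so a length may be a divisor of the true one. Recovery and fit were tested on simulated data. Ratio intervals are exact binomial at 95%, and the floor is 3 fragments.

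Salt and control libraries with the same replicate number deviated together across genes (r = 0.175, 0.105 and 0.128, other pairs -0.108 to -0.0391), which pairs them as a hint from the data only, since no label gives a pairing; the fit without the block is the one reported. Alternatives were other limits, pseudocounts, filters, scalings and variance models, voom on the recovered fragments, the replicate block and each library left out. Named were all 20 genes, which the rule for names covers, the 3 genes just outside each limit, and the 3 largest changes among neighbours and among other described genes; other non-members were chosen after their values were seen. Descriptions come from the study's lists of changed genes, of which no fold change or p-value was used. The members, families and lists were chosen with earlier results of these data known. Promoters and proteins were not analysed here. Python 3.11.15, numpy 2.4.6, pandas 2.3.3, scipy 1.17.1 and matplotlib 3.10.9 were used.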

Additional observations from a re-analysis of the deposited data

How the results depend on the processing

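The number of switched-on genes followed its limits: 12 genes with a control limit of 0.25 FPKM and 39 with 1 FPKM, 44 with a salt limit of 2.5 FPKM and 11 with 10 FPKM, 86 with limits on treatment means, and 21 to 48 with 1 library left out; the 20 genes are among those found under every wider limit. Over all genes tested, 2266 rose and 5684 fell as deposited. After median-ratio scaling 3740 rose and 3460 fell, quantile normalization gave 3602 and 3809, and leaving out a library gave 1624 to 2113 and 3705 to 5616, so the balance of directions depends on the scaling. With the replicate block 2279 rose and 5737 fell. Of the neighbours, 5 rose and 7 fell with the block, 7 rose and 2 fell after median-ratio scaling, 6 rose and 3 fell after quantile normalization, and 4 to 5 rose and 1 to 7 fell with a library left out; without control replicate 2 only 1 fell. Of the other described genes, 1050 rose and 74 fell with the block, and 835 to 969 rose and 67 to 74 fell with a library left out. The block changed the call of 73 of these genes and neighbours, among those named only ClCG01G017120 and ClCG02G023050. Of the 31 tested organelle-type models that are not members 28 rose, and 21 to 27 with a library left out, an alternative added after seeing the data, as were scaling for the order of the salt libraries and the folds with a salt library left out. Leaving out 1 salt library moved the mean salt level of 9 of the 20 genes by over 1.5 times, at most 2.90 times, and scaling moved 3 by more than their SD. The cause of these changes was not tested. Precision is limited by 3 plants per treatment and by control values of 0 to 19 fragments.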
